A study of Mus musculus with 6 samples.

Results

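Transcript levels of 8 transcription factors that set up and maintain the B cell lineage were followed in B cell progenitors of old and young mice. They were Ebf1, Pax5, Tcf3, Foxo1, Ikzf1, Ikzf3, Pou2af1 and Bcl11a, fixed by name, and a probe set counted for a factor where the platform annotation pairs it with that gene alone. Each of the 8 had exactly 1 such probe set, out of 19938 genes represented by an unshared probe set. The arrays held RNA of sorted pro-B and pre-B cells, with no manipulation before the arrays, from mice of the inbred laboratory strain BALB/c. Old mice, aged 24 months, gave 3 arrays and young mice, aged 2 months, gave 3, and each array started from 100 ng of RNA that was amplified before hybridisation to a whole-transcript array. The sample names speak of a mouse but do not say whether an array holds 1 animal or a pool, so p-values measure the spread between these arrays only. The comparison asked how transcript levels in these progenitors differ with the age of the animal.

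B cell development is driven by a small network of factors that switch each other on. In the mouse, the E2A proteins made from Tcf3 act with Foxo1 to raise Ebf1, Ebf1 activates Pax5, and Pax5 locks in the B fate by activating B cell genes and silencing those of other lineages. The Ikaros family proteins of Ikzf1 and Ikzf3, the coactivator of Pou2af1 and the repressor of Bcl11a act beside this core.

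Promoter sequence is shown for Ebf1, which starts the B cell program, for Bcl11a, which alone passed the threshold on old replicate 3, and for Ikzf1, whose window holds a match to the octamer sequence that the Pou2af1 protein acts on through octamer-binding factors. The RefSeq table held 9 annotated starts for 7 of the 8 factors, and the 250 bases before each were searched on both strands. The patterns were CAGCTG and CAGGTG for E2A proteins, CCCNNGGG for the Ebf family, GTAAACA for FOXO proteins, TGGGAA for Ikaros proteins and ATGCAAA for octamer factors. Matches are in capitals, and no patterns overlapped in the 3 windows.
Bcl11a (GRCm38.p6, chr11:24080445-24080694, plus strand): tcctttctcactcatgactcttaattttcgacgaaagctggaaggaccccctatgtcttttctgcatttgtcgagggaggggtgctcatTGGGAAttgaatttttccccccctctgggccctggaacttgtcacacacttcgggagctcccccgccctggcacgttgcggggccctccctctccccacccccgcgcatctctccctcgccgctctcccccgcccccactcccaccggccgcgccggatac
Ebf1 (GRCm38.p6, chr11:44619978-44620227, plus strand): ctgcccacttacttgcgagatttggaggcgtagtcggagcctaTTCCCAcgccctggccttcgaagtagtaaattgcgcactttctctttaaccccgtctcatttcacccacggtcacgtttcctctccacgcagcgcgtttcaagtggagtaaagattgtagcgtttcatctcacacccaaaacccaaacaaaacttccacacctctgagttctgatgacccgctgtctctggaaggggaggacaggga
Ikzf1 (GRCm38.p6, chr11:11689927-11690176, plus strand): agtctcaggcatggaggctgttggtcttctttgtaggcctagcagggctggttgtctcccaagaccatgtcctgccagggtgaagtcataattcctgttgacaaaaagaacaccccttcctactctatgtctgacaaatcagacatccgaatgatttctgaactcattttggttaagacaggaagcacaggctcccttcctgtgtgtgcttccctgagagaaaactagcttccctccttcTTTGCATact

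The Ikaros pattern lay 161 to 156 bases before the Bcl11a start and, on the other strand, 207 to 202 bases before this Ebf1 start. It was found in 21.6% of all 32851 windows of this length, so its presence is common. The octamer pattern lay 10 to 4 bases before this Ikzf1 start and was found in 4.1% of all windows. The Ebf pattern was found before Foxo1 and before the other Ikzf1 start, and in 11.8% of all windows. Neither E2A pattern (13.0% and 17.2% of all windows) nor the FOXO pattern (3.2%) was found before any factor, which says only that these letters are not in these windows.

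The arrays differed in overall signal, which bears on every value that follows. Values are given as log2 intensity throughout. On old replicates 1 and 2 the interquartile range over 23410 probe sets was 1.41 and 1.40, against 2.44 on old replicate 3 and 2.76 to 2.98 on the young arrays. As a level of background, 1205 probe sets for smell and pheromone receptors were used, whose 95th percentile on an array is called the receptor level here. It was 6.28 and 6.19 on old replicates 1 and 2, at 5.02 on old replicate 3 and at 4.57 to 4.73 on the young arrays. Old replicates 1 and 2 had 14.9% and 17.4% of probe sets above it, old replicate 3 had 49.2% and the young arrays 53.1% to 56.4%. The labelled cell type was borne out on old replicate 3 and the young arrays, where 9 to 10 of 10 B cell progenitor markers lay above this level, while old replicates 1 and 2 had 4 and 6. Of 12 neutrophil and granule markers, 11 to 12 also lay above it on old replicate 3 and the young arrays. Old replicates 1 and 2 had only 3 and 4 of these markers above it. S100a8 was bright on every array, reading 10.30, 11.48 and 11.51 in old cells and 11.30 to 11.47 in young cells. It does not stand for its list, as 11 of the 12 neutrophil and granule markers had a lower old mean and 1 a higher one. Their part in the results was not tested.

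All 8 factors had a lower mean in old than in young progenitors, Bcl11a with the opposite sign after quantile normalization, and the difference ranged from -0.86 for Tcf3 to -3.35 for Ebf1 on the log2 scale. A lower old mean was found for 38.1% of all probe sets, and for 97.5% of the 4504 whose young mean lay between 7 and 11, a range that holds all 8 factors. None of the 8 passed the threshold in limma with all arrays (adjusted p = 0.101 to 0.169), as 0% of all probe sets did, while 5 of the 8 had an unadjusted p under 0.05, as had 10966 of the 23410. The old values split, with replicates 1 and 2 far below the young arrays and replicate 3 close to them. Groups did not overlap for 4 of 8 factors, Ebf1, Foxo1, Ikzf1 and Bcl11a, all lower in old cells. Over all probe sets 22.9% were lower and 36.1% higher in old cells without overlap. Among the 4504 probe sets of like young level 68.8% were lower without overlap, so the count for the factors is not above that of probe sets of like young level. The median difference was -1.89 for the factors and -1.71 for those 4504, against 0.35 for all probe sets. Relative to that overall shift the factors lay at -2.24, and after quantile normalization their median was -1.19. In these sorted bulk samples, fewer B lineage cells, less transcript per cell and the narrower signal range of old replicates 1 and 2 cannot be told apart.

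**Figure D1:**
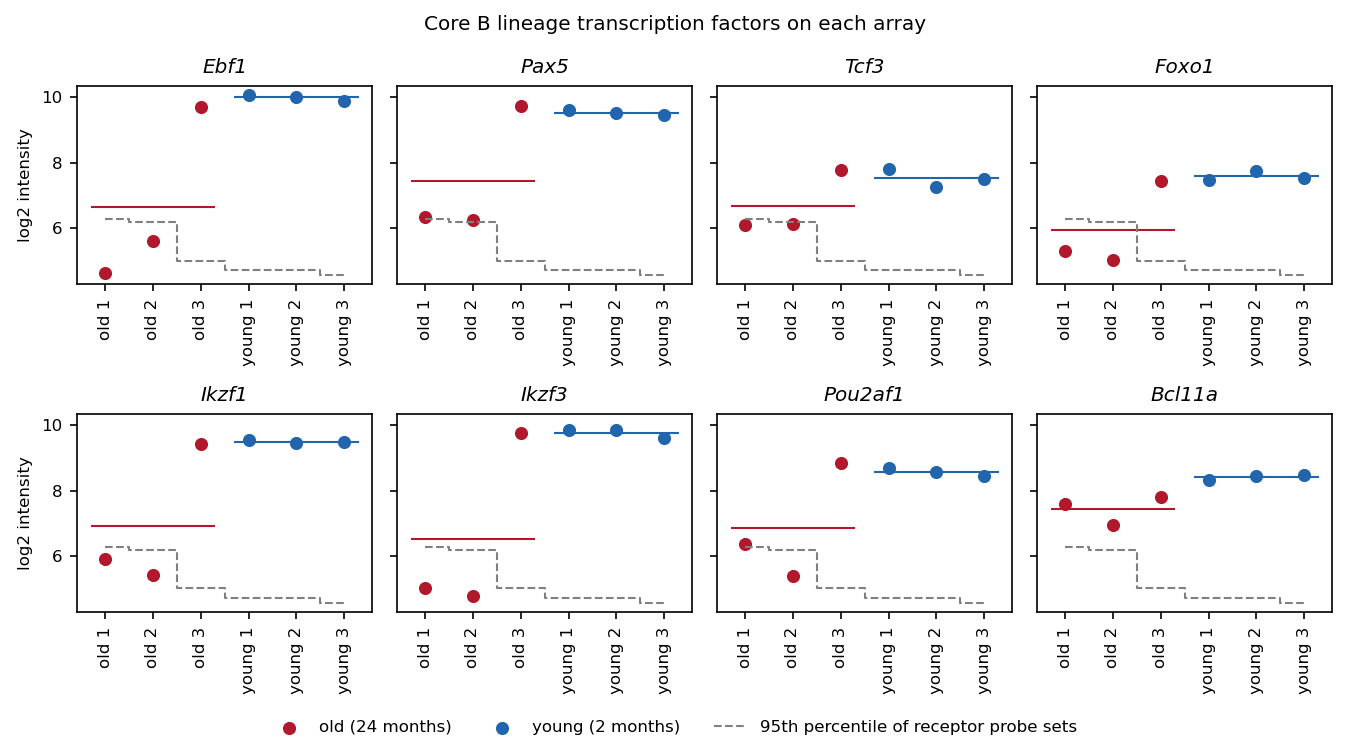
Log2 intensity (vertical axis) of each factor on each of the 3 old and 3 young arrays (horizontal axis), with group means as lines and the receptor level of each array as a dashed step. Old replicates 1 and 2 lie near or under the dashed step for 7 factors, Bcl11a stays above it on every array, and old replicate 3 lies near the young arrays.

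Ebf1, which specifies the B lineage and opens B cell genes, was far down on old replicates 1 and 2 only (probe set 10375360). It was at 4.64, 5.61 and 9.70 on old replicates 1, 2 and 3, and at 10.07, 10.02 and 9.90 on young replicates 1, 2 and 3. All old values were below all young ones, but old replicate 3 came close to the lowest young array. The old mean was 6.65 ± 2.69 and the young mean 10.00 ± 0.09 (SD, n = 3 each), a difference of -3.35 ± 1.21 (SE; limma, adjusted p = 0.101).

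Tcf3, the gene of the E2A proteins that start the program, showed the same split (probe set 10370837). Its values were 6.11, 6.12 and 7.79 on the old arrays and 7.81, 7.27 and 7.51 on the young arrays, so old replicate 3 lay within the young range. The young arrays themselves spread most for this factor (SD 0.27, n = 3). The difference was -0.86 ± 0.48 (SE; limma, adjusted p = 0.169), and after quantile normalization it was -0.06.

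Foxo1, a forkhead factor that activates the Il7r and Rag genes and is held out of the nucleus by PI3K signalling, was low on the same 2 old arrays (probe set 10491962). It stood at 5.32, 5.04 and 7.45 on the old arrays and 7.49, 7.74 and 7.55 on the young arrays. The groups did not overlap, with old replicate 3 next to the lowest young array. The difference was -1.66 ± 0.61 (SE; limma, adjusted p = 0.101).

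Pax5, the commitment factor, was at 6.35, 6.27 and 9.75 on the old arrays, against 9.62, 9.52 and 9.46 on the young arrays (probe set 10512669). Here old replicate 3 was above every young array, while old replicates 1 and 2 were more than 3 log2 units below them. Both of those values still lay just above the receptor level. The difference over all arrays was -2.07 ± 0.90 (SE; limma, adjusted p = 0.111), and after quantile normalization it was -0.99.

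The Ikaros family members, zinc finger proteins that recruit chromatin remodelling complexes, were within the receptor level on old replicates 1 and 2. Ikzf1, which encodes Ikaros and is needed from the earliest lymphoid stage, was at 5.92, 5.43 and 9.43 on the old arrays, against 9.55, 9.45 and 9.48 on the young arrays (probe set 10374333). Ikzf3, which encodes Aiolos and rises towards the pre-B stage, was at 5.04, 4.79 and 9.76 on the old arrays, against 9.84, 9.86 and 9.61 on the young arrays (probe set 10390640). For Ikzf3 old replicate 3 sat within the young range, and for Ikzf1 it was just under it. The differences were -2.57 ± 0.99 for Ikzf1 and -3.24 ± 1.26 for Ikzf3 (SE; limma, adjusted p = 0.101 each).

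Pou2af1 encodes a coactivator of octamer-binding factors that matters most in later B cells. It was at 6.36, 5.40 and 8.83 on the old arrays, against 8.69, 8.57 and 8.44 on the young arrays (probe set 10585276). Old replicate 3 was again above all young arrays, as for Pax5. The difference was -1.70 ± 0.81 (SE; limma, adjusted p = 0.126), and after quantile normalization it was -0.98.

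Bcl11a, a zinc finger repressor that the mouse needs to make B cells at all, departed from the others in the spread of its old values (probe set 10374727). Its values were 7.60, 6.94 and 7.79 on the old arrays and 8.32, 8.44 and 8.49 on the young arrays. The 3 old values kept together, all lay below the young ones and all were above the receptor level. On old replicate 2 Bcl11a lay at -1.47 from the young mean, close to Tcf3 at -1.41. The SD of Bcl11a among the old arrays was 0.45, against 0.97 to 2.80 for the other 7 factors. The old mean was 7.44 ± 0.45 and the young mean 8.42 ± 0.09 (SD, n = 3 each), a difference of -0.97 ± 0.27 (SE; limma, adjusted p = 0.101) that turned to 0.44 after quantile normalization. Quantile normalization keeps only the order of probe sets within an array, and in that order Bcl11a ranked above 96.6% and 93.0% of probe sets on old replicates 1 and 2, above 89.0% on the third old array and above 91.1% to 91.8% on the young arrays.

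**Figure D2:**
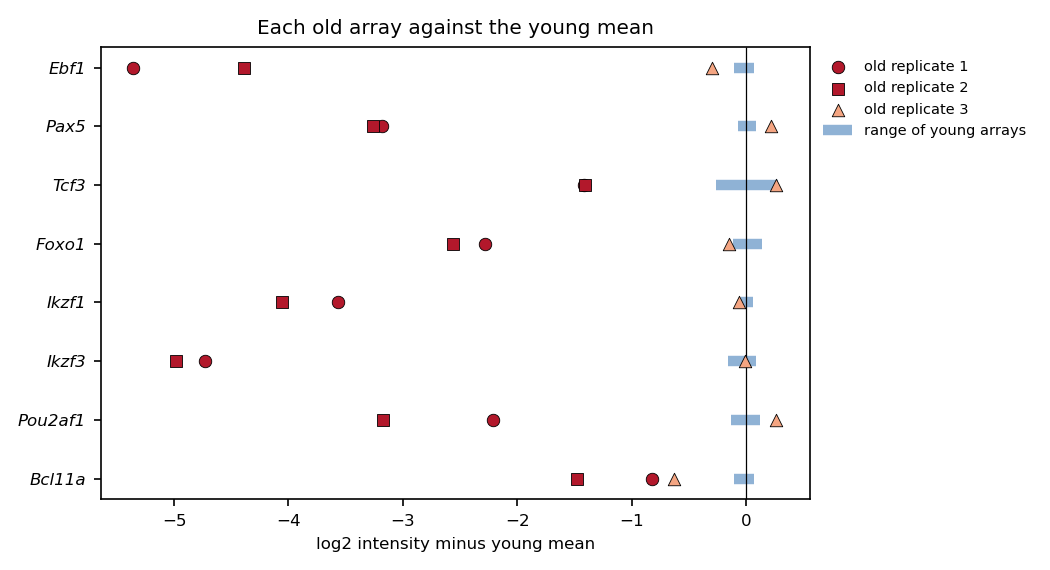
Each old array minus the young mean, in log2 units (horizontal axis), for each factor (vertical axis), with the range of the 3 young arrays as a bar. Ebf1 and Ikzf3 reach -5.35 and -4.97 on old replicates 1 and 2, while Bcl11a lies at -0.82, -1.47 and -0.62 on the 3 old arrays. The Bcl11a difference has the opposite sign after quantile normalization.

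Leaving out old replicate 3 changed the call for every factor. With old replicates 1 and 2 against the 3 young arrays, limma called all 8 lower, from -1.14 ± 0.21 for Bcl11a (adjusted p = 0.00229) to -4.87 ± 0.28 for Ebf1 (SE; adjusted p = 1.87e-05). In that comparison 30.2% of all probe sets were called lower and 52.2% higher, and 94.2% of the probe sets of like young level were called lower. A call there is therefore shared with almost every gene of that level. Leaving out any other single array left 0 of the 8 called.

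The falls on old replicates 1 and 2 are lower bounds for most factors. On old replicate 1, 5 of the 8 were within the receptor level, and on old replicate 2, 6 were. With the 99th percentile of the receptor probe sets in place of the 95th, 7 and 8 were. Values under the level were raised to it, and each bound compares the mean of these arrays with the young mean. The median of the 4504 probe sets of like young level was itself -2.53 and -2.26 from the young mean on these arrays. Of those probe sets, 1244 and 1690 lay above the receptor level. The bounds therefore describe the deposited values and are not corrected for the overall signal of these 2 arrays.

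By the 95th percentile Ebf1 was at least 13.6-fold lower, and by the 99th at least 6.50-fold. For Ikzf3 the bounds were 11.6-fold and 5.54-fold, and for Ikzf1 9.56-fold and 4.57-fold. Pou2af1 gave 4.89-fold and 2.41-fold. Foxo1 and Tcf3 had little room, with bounds of 2.57-fold and 2.45-fold by the 95th percentile and 1.23-fold and 1.18-fold by the 99th. Pax5 lay above the 95th percentile on both arrays, where it was 9.31-fold lower, but within the 99th, which leaves at least 4.70-fold. Bcl11a was above the 95th percentile on both arrays and within the 99th on old replicate 2, at 2.21-fold lower and at least 1.96-fold lower.

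On old replicate 3, 4503 of the 4504 probe sets of like young level lay above the receptor level, and their median difference from the young mean was -0.27. There 15.4% of them lay further down than Bcl11a, 46.7% further down than Ebf1 and 64.4% further down than Foxo1. For Ikzf1 and Ikzf3 the shares were 74.9% and 80.4%. For Pax5, Tcf3 and Pou2af1 they were 94.0%, 95.2% and 95.4%, so on this array these 3 factors stood high among probe sets of like level.

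Old replicate 3 alone was also set against the young arrays, on the assumption that it varies as they do. Of all 23410 probe sets, 7455 lay below all young arrays there and 9766 above. Of the 4504 of like young level, 3166 lay below and 549 above. Among the factors, 4 were below all young arrays (Ebf1, Foxo1, Ikzf1 and Bcl11a), 2 above (Pax5 and Pou2af1) and 2 within their range. Only Bcl11a passed the threshold, at -0.62 ± 0.13 (SE; limma, adjusted p = 0.0394). In that comparison 5.24% of all probe sets were called lower and 1.76% higher, and 14.9% of those of like young level were called lower. Next came Ebf1 at -0.29 ± 0.13 (SE; adjusted p = 0.204) and Pou2af1 at 0.26 ± 0.14 (SE; adjusted p = 0.272). The remaining 5 factors had adjusted p from 0.317 to 0.988.

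**Figure D3:**
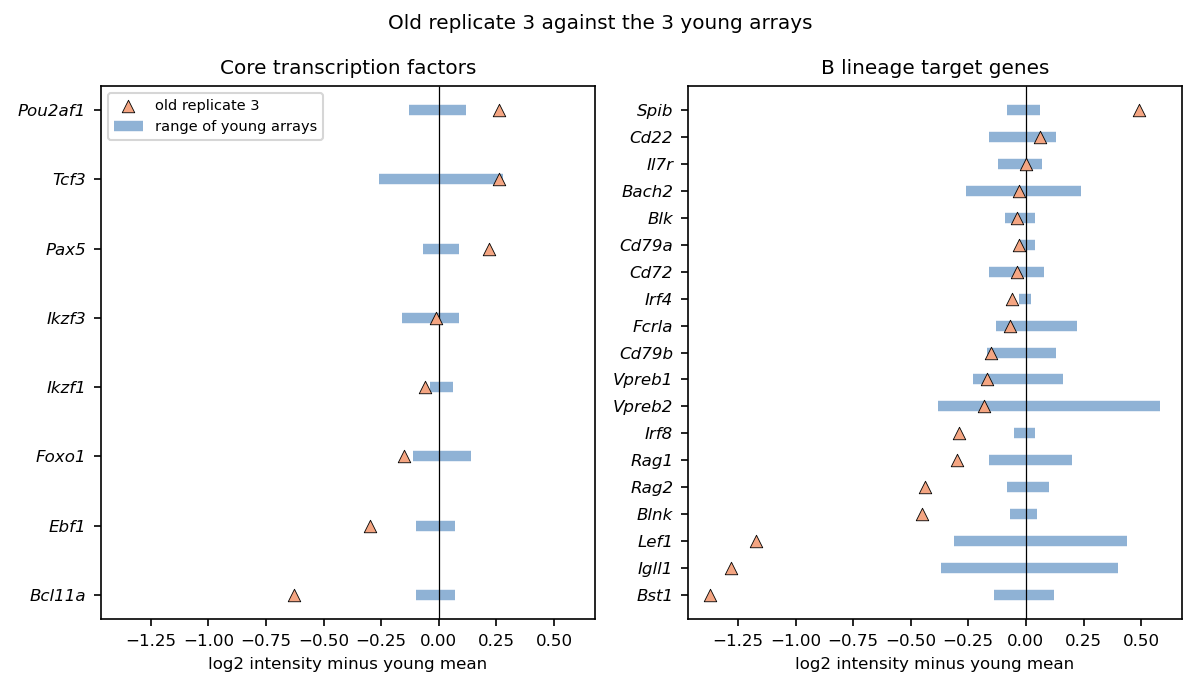
Old replicate 3 minus the young mean in log2 units (horizontal axis) for the 8 factors and for 19 known targets (vertical axes), with the range of the 3 young arrays as a bar. Bcl11a lies at -0.62 among the factors, and Bst1, Igll1 and Lef1 lie at -1.37, -1.28 and -1.18 among the targets.

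The genes nearest to each factor in pattern were found by the root mean square distance over the 6 arrays, each value taken minus the young mean of its probe set. The nearest to Ebf1 were Rpl5, of the large ribosomal subunit, and Sf3b1, of the spliceosome, both at 0.08 log2 units. The nearest to Bcl11a were Phlpp1 and Dnajb1, both at 0.06, and to Pax5 Arhgap25 and Itpr2, at 0.07 and 0.08. Add1 and Rest were nearest to Foxo1 (0.08 each), Anapc13 and Rbm5 to Ikzf1 (0.08 and 0.09), Arf3 and Fbxl17 to Tcf3 (0.13 each), and Cnot3 and Zcchc7 to Pou2af1 (0.11 and 0.13). Ikzf3 was nearest to Atp1b1 (0.10) and then to the B cell surface gene Cd72 (0.11). Between 32 probe sets for Ikzf3 and 449 for Foxo1, of 20464 compared, lay within 0.25 log2 units, so each pattern is shared with other genes. Old replicates 1 and 2 weigh most in these distances, and many of the values there lie within the receptor level, so distances and ranks describe the deposited values and not measured likeness.

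Genes that these factors are known to activate had a median difference like that of probe sets of like young level. A smaller share of them was lower without overlap. Of 19 measured targets, 17 had a lower old mean and 2 a higher one, 7 were lower without overlap, and 0 passed the threshold in limma with all arrays (15 had an unadjusted p under 0.05). Of the like-level probe sets 97.5% had a lower old mean, 68.8% were lower without overlap and 76.6% had an unadjusted p under 0.05. The median difference was -1.70 for the targets and -1.71 for those probe sets. After quantile normalization 16 had a lower old mean. By size of p they were led by Bst1, a surface antigen of early B cells (-1.64 ± 0.22, SE), Lef1, a factor of the TCF/LEF family (-1.57 ± 0.32), Rag2 of the recombinase (-1.70 ± 0.52) and Blnk, the adaptor of the pre-B receptor (-2.93 ± 0.98), each at adjusted p = 0.101. Vpreb2 and Vpreb1, parts of the surrogate light chain, had higher old means (0.64 and 0.22, adjusted p = 0.234 and 0.504).

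A few targets were low on old replicate 3 as well. Bst1 was at 6.27 there against 7.50, 7.67 and 7.76 on the young arrays, Lef1 at 6.35 against 7.40, 7.21 and 7.96, and Igll1, the other surrogate light chain gene, at 7.86 against 9.11, 8.77 and 9.54. These 3 of 19 targets passed the threshold on that array alone (limma, adjusted p = 0.00817, 0.0429 and 0.0346), all lower, beside the 14.9% of probe sets of like young level. Spib, an ETS factor, went the other way, at 9.38 against 8.91, 8.95 and 8.81, and did not pass (adjusted p = 0.0627). The young arrays spread more for Lef1 and Igll1 (SD 0.39 each, n = 3) than for Bst1 (SD 0.13, n = 3).

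Partners and inhibitors of the E2A proteins had differences of both signs. Of 6 measured, 4 had a lower old mean, and none passed in limma with all arrays (4 had an unadjusted p under 0.05). The E proteins Tcf4 and Tcf12, which pair with E2A, were at 6.02, 5.31 and 7.98 and at 4.90, 5.28 and 8.48 on the old arrays, against 8.38 to 8.61 and 8.59 to 8.63 on the young arrays. The inhibitor genes Id3 and Id2 differed by -0.73 ± 0.25 and -0.28 (SE; adjusted p = 0.101 and 0.426), and Id4 and Id1 by 0.62 ± 0.26 and 0.85 ± 0.46 (adjusted p = 0.106 and 0.156). Id1 and Id2 were within the receptor level on all 3 old arrays, as was Id4.

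Paralogues of the factors, most of which belong to other tissues, mostly had higher values on old replicates 1 and 2. Of 18 measured, 16 had a higher old mean and 2 a lower one, with a median of 0.66 against 0.35 for all probe sets, and 0 passed in limma with all arrays (10 had an unadjusted p under 0.05). Over all probe sets 61.9% had a higher old mean and 46.8% an unadjusted p under 0.05. The 2 lower ones were Ikzf5 and Foxo3, both expressed widely. Ikzf5 differed by -1.11 ± 0.27 (SE; adjusted p = 0.101) by its brighter probe set and did not overlap between the groups. It passed on old replicate 3 alone (limma, -0.64, adjusted p = 0.0492), a call its other probe set did not share (adjusted p = 0.372). Ikzf4 and Pax7 led the higher side (1.10 ± 0.35 and 0.98 ± 0.32, SE; adjusted p = 0.101 each). Only 2 of the 18 were above the receptor level on old replicates 1 and 2, so the others have no measured level there. After quantile normalization 15 of the 18 had a higher old mean. Octamer factors that work with the Pou2af1 protein gave 2 measured genes, of which Pou2f2 was above the receptor level on every array, at 7.09, 6.65 and 7.11 on the old and 6.72, 6.71 and 6.57 on the young arrays (adjusted p = 0.296).

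Of the genes that Pax5 keeps silent in B cells, 1, 0 and 4 of 8 lay above the receptor level on the old arrays and 4 to 6 on the young arrays. Of these 8, 5 had a higher old mean in the main scaling and 2 after centring or quantile normalization, with a median of 0.14, and 0 passed in limma with all arrays (1 had an unadjusted p under 0.05). Over all probe sets 61.9% had a higher old mean and 46.8% an unadjusted p under 0.05. Cd28, the costimulatory receptor of T cells, was within the receptor level on all 6 arrays, and Csf1r, the receptor of macrophage growth factor, on 5 of 6. Emb was the lowest in difference (-1.49 ± 0.57, SE; adjusted p = 0.101), with young values from 5.38 to 7.15. Of 7 plasma cell genes, 3 had a lower old mean, 4 after centring and 2 after quantile normalization, and 0 passed in limma with all arrays (2 had an unadjusted p under 0.05). Prdm1, the repressor of Pax5 in plasma cells, was within the receptor level on all 6 arrays.

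Markers of other cells were set beside the overall shift of 0.35. The shift differed with level, with a median of -1.71 for the 4504 probe sets of like young level. The marker lists were not matched for level, so a median above or below 0.35 does not show a change in cell content. The median difference was 0.57 for 8 T cell genes and 0.42 for 4 erythroid genes, above that shift, and -0.58 for 8 mature B genes and -1.22 for 12 neutrophil and granule genes, below it. It was 0.22 for 5 monocyte and macrophage genes, 0.21 for 6 NK cell genes and 0.15 for 5 stem and early progenitor genes, which centring turned to -0.03, -0.04 and -0.11. After quantile normalization the medians were 0.13 for T cell, 0.70 for erythroid, -0.03 for mature B and -0.74 for neutrophil genes, and 0.06, -0.20 and -0.04 for monocyte, NK cell and stem cell genes. None of these genes passed in limma with all arrays (6 of the 12 neutrophil genes and 1 to 3 genes of each other list had an unadjusted p under 0.05). Over all probe sets 46.8% had such an unadjusted p. T cell markers above the receptor level numbered 0, 1 and 1 of 8 on the old arrays and 1 to 4 on the young arrays. Their part in the results was not tested. The T cell list summed to 40.3, 41.7 and 35.7 on the old arrays and 34.5 to 35.8 on the young arrays. Most of its values on the old arrays were within the receptor level. That level was 6.28 and 6.19 on old replicates 1 and 2, against 4.57 to 4.73 on the young arrays. The neutrophil list summed to 74.0, 77.9 and 94.2 on the old arrays and 94.4 to 103.0 on the young arrays, lower on the same 2 arrays as the B lineage factors.

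**Figure D4:**
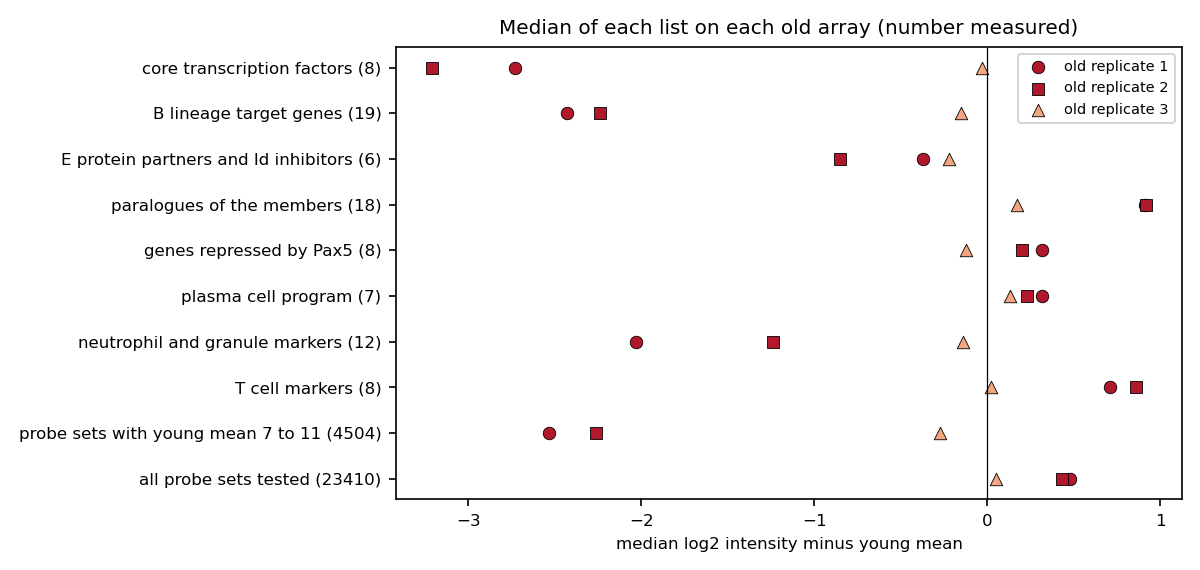
Median log2 difference from the young mean (horizontal axis) for each list (vertical axis, number measured in brackets) on each old array. The factors lie at -2.73 and -3.21 on old replicates 1 and 2 and at -0.03 on old replicate 3, beside -2.53, -2.26 and -0.27 for the 4504 probe sets of like young level.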

How the data were processed

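The authors summarised probe intensities with RMA, per the submitters' processing notes. Its version and options were not found in the labels or file header. The deposited intensity values run from 3.58 to 8502 on a linear scale, and log2 was taken of each. The table holds 28940 probe sets, and 23410 are paired with a gene by the platform annotation and were tested. Of 21789 paired with 1 gene, 21698 have a gene ID in the RefSeq table, which gave current symbols.

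Old and young arrays, 3 each, were compared with limma 3.58.1 in R 4.3.3 (2-sided, moderated variances, Benjamini-Hochberg adjustment over all probe sets tested, threshold 0.05). The number of arrays limits the precision. A listed gene with several probe sets was given by the one with the highest mean. The members, lists and tests were chosen with earlier results of these data known. Named genes are every factor, up to 4 lower and 2 higher genes of a list by smallest p, and the 2 genes nearest in pattern. Those singled out on old replicate 3 or for their level were named after their values were seen. Lists were described by counts and medians. Some listed genes were not analysed here. The motifs were chosen after the data were seen.

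Groups share replicate numbers. Arrays with the same number deviated together (correlations of 0.157, 0.15 and 0.279, all above 0.1), so a fit with the number as a block was an alternative. Old replicate 1 also correlated at 0.153 with young replicate 2, and old replicate 2 at 0.141 with young replicate 1. These values therefore cannot show whether the numbers pair replicates 1 and 2. The code was tested on data with known changes. Tables and figures were made in Python 3.11.15 (matplotlib 3.10.9, pandas 2.3.3, numpy 2.4.6).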

Additional observations from a re-analysis of the deposited data

How the results depend on the processing

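With all arrays the counts called were 0 of all probe sets, 0 of 8 factors, 0 of 19 targets and 0 of the partners, paralogues, repressed, octamer and plasma cell genes. They stayed at 0 with the replicate block, without dim probe sets (mean under 4.32), with all 28940 probe sets, after centring or quantile normalization, with trended robust moderation, at adjusted p under 0.1 and with 16 added to each intensity. The replicate block gave a smallest adjusted p of 0.081 and changed no call. With estimated array weights the counts were 19998, 8, 18 and 34, and with old replicate 3 alone against the young arrays 1638, 1, 3 and 3. Leaving out single arrays gave 0 to 19285, 0 to 8, 0 to 17 and 0 to 32, each highest without old replicate 3 and 0 without any other array. The estimated weights were 0.0447 for old replicate 3, 0.288 and 2.6 for old replicates 1 and 2, and 1.87 to 4.26 for the young arrays. The weighted fit thus comes close to the fit without old replicate 3 and is not separate from it. The cause of the change in counts was not tested.

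Signs turned for 4 factors. Bcl11a stood at 0.44 after quantile normalization, and Pax5, Tcf3 and Pou2af1 at 0.22, 0.26 and 0.26 on old replicate 3 alone. Averaging a gene's probe sets could change nothing for factors or measured targets, which have 1 each. Taking the 99th percentile of receptor probe sets as background put 15 of the factors' values on old arrays within it, against 11 at the 95th, and moved the least fold by over 1.5 times for every factor but Bcl11a. On old replicates 1 and 2 signal over background limits the size of most changes. The array weights did not converge to tolerance.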

Other observations

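On old replicate 3, a single array, some listed genes outside the B lineage factors and their targets also lay outside the young range. Over all 23410 probe sets, 7455 lay below all young arrays there and 9766 above. Cd74, the invariant chain of MHC class II, was higher, at 8.43 there, against 7.62, 7.74 and 7.28 on the young arrays (0.88). Mzb1, a chaperone of immunoglobulin secretion, was lower, at 7.19 there, against 7.95, 8.02 and 8.48 on the young arrays (-0.96). Tnfrsf17 (0.56) and Meis1 (-0.58) also lay outside the young range, but were within the receptor level on all 6 arrays.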
